A study of Homo sapiens with 8 samples.

Results

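The genes described here are the enzymes of haem synthesis ALAS1, ALAS2, ALAD, UROS, UROD, CPOX, PPOX and FECH, and SLC25A37, the carrier that brings iron into mitochondria. They were taken by name from the gene table, where 9 of the 35805 rows carry these names, and all 9 were among the 14665 genes tested, those whose deposited log2 values averaged 0 or more. The series asks how loss of IRF2, a repressor and activator at interferon-responsive promoters, alters RNA in K562 cells, an established chronic myeloid leukaemia line with erythroid features. All 4 groups, of 2 libraries each, were K562 cells carrying dCas9-KRAB, a nuclease-dead Cas9 fused to a repressor domain. One group was untransduced, one was transduced with a guide to the AAVS1 site (sgAAVS1), and the remaining groups received sg1-IRF2 or sg2-IRF2, both guides to IRF2. Transduced cells were harvested 7 days after transduction, and no harvest time is given for untransduced cells. Untransduced cells carry no guide, so transduction and the presence of a guide cannot be told apart in comparisons with them.

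Libraries held 5248359 to 6738348 reads over the listed genes. IRF2 itself had 271 and 268 reads in the untransduced libraries, 196 and 291 in those of sgAAVS1, but 4 and 8 in those of sg1-IRF2, and 22 and 21 in those of sg2-IRF2. Both guide groups thus carried the labelled knockdown (both guides against sgAAVS1 -4.51 ± 0.18 on the log2 scale, SE, adjusted p = 2.55e-16, limma moderated test). Nothing in the labels says that replicates were separate cultures. The p-values therefore measure spread between libraries, which may be technical. Compared by chi-square per degree of freedom over genes, the sgAAVS1 replicates gave 1.69, above the 1 of pure counting noise, and the untransduced, sg1-IRF2 and sg2-IRF2 replicates gave 0.818, 0.777 and 0.644. The replicates of those 3 groups therefore differed by less than the sampling noise. Both libraries were kept as replicates. With such replicates counted as 1 sample, 58 of the 60 calls of single genes, related genes included, were lost, and those of COL1A2 in both IRF2 guides against untransduced cells and in the F test were kept. A fit with no mean-variance trend lost 59 of these 60 calls. RNA was measured in bulk, where fewer cells of a type and less RNA per cell cannot be told apart.

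Haem is built in 8 enzymatic steps that begin and end in mitochondria. ALAS1, made in most tissues, or ALAS2, made in erythroid cells, joins glycine and succinyl-CoA to aminolevulinic acid, the step that limits the rate of the pathway. In the cytosol ALAD and UROS take part in assembling this precursor into a ring, which UROD, CPOX and PPOX trim and oxidise to protoporphyrin, and FECH inserts ferrous iron. Haem holds down ALAS1 in most cells, whereas ALAS2 is driven by erythroid factors such as GATA1 and its translation is held back through an iron-responsive element when iron is scarce. SLC25A37, also called mitoferrin 1, supplies FECH with iron in erythroid cells.

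The sequences of ALAS1 and ALAS2 are shown because the same step is served by both genes and only ALAS2 passed a test against untransduced cells. The stretches upstream of the RefSeq start sites (GRCh38.p14) end short of every annotated exon. Capitals mark matches to the GATA motif (GATA with A or T before it and A or G after it) and to the KLF motif (CCNCNCCC) on either strand. The ALAS1 stretch lies on the plus strand at chr3:52197903-52198082, bases -180 to -1, the ALAS2 stretch on the minus strand at chrX:55031065-55031157, bases -180 to -88.
ALAS1 upstream: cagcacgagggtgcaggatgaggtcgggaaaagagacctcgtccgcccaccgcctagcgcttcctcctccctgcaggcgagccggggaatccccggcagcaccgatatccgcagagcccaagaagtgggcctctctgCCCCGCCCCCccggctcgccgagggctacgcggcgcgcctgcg
ALAS2 upstream: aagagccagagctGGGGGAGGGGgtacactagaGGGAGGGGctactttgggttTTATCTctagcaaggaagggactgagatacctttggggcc
ALAS2 iron-responsive element: cattcgttcgtcctCAGTGCagggcaacag
The last line is read from a GENCODE release 29 transcript of ALAS2 (bases 7 to 36, minus strand, chrX:55030942-55030971), with the loop in capitals. ALAS2 held 1 GATA match, starting at base -127, and KLF matches between bases -167 and -56. ALAS1 held no GATA match and 2 overlapping KLF matches near base -43. The motif letters alone are common: of 35116 windows of 300 bases around start sites (250 before, 50 after), 25.0% held a GATA match and 56.2% a KLF match.

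Among the other genes, GATA matches stood in the windows of CPOX (2) and in 1 of 2 windows each of ALAD and PPOX, and in neither UROD nor FECH. The IRF motif, GAAA followed after 2 free bases by another GAAA, was in none of the 9 windows read for 7 of the genes, and in 3.57% of all windows. UROS had no entry in the sequence table and the window of SLC25A37 was not used here. These matches describe letters, not bound sites.

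Levels of the genes in K562 cells spanned about an order of magnitude when expressed per length, as RPKM, the reads per exonic kilobase and per 1000000 reads over the union of GENCODE release 29 exons. UROD stood highest, at a mean of 42.8 over the 8 libraries (range 41.7 to 45.9), at percentile 95.3 of 11560 protein-coding genes. SLC25A37 followed at 39.4 (37.3 to 42.0), CPOX at 38.9 (36.2 to 43.0) and the erythroid ALAS2 at 33.1 (27.2 to 36.9). Neighbours in this order overlapped from UROD down to ALAS2, but ALAS2 lay below UROD and SLC25A37 in every library. FECH came next at 23.8 (23.0 to 25.1) and overlapped neither neighbour. ALAS1 (18.3, range 16.6 to 20.02), PPOX (11.7), ALAD (7.54) and UROS (5.03, range 4.47 to 5.44) followed in that order, each apart from its neighbours.

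On this scale ALAS2 exceeded ALAS1 in every library, by 1.40 times per exonic base in untransduced replicate 1 and by 2.23 times in sg1-IRF2 replicate 2. The union of exons of UROS is long (9532 bases, against 2134 for ALAS2), which lowers a level per exonic base where most reads come from a short transcript. The deposited span of CPOX is wider than the GENCODE gene whose 3232 exonic bases were used, so its level may be too high. The densest genes of the table, HIST1H1C and the ferritin light chain FTL, reached 189.5 and 183.7 on the same scale. Ferritin and globin transcripts are usually far more abundant than others in K562 cells, and the handling of duplicate reads is not given in the sources used here.

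**Figure D1:**
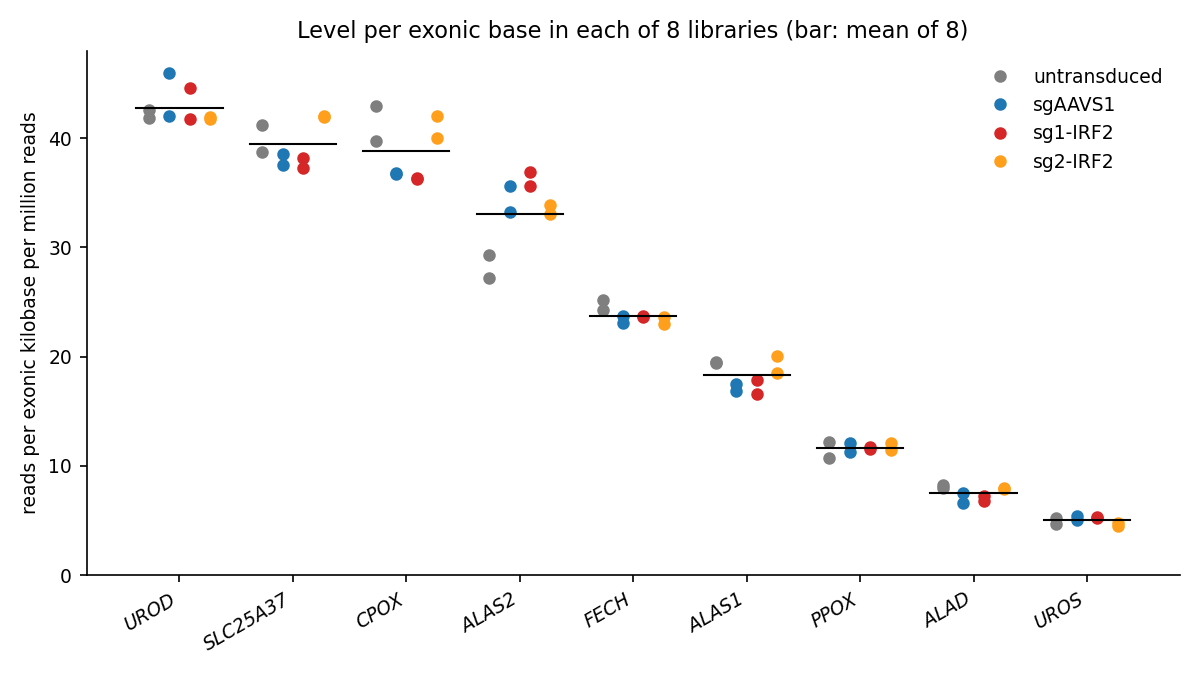
RPKM (vertical axis) for the 9 genes, with 1 point per library coloured by group and a bar at the mean of 8. UROD, SLC25A37, CPOX and ALAS2 lie at 27.2 or above in every library, and UROS lies lowest, between 4.47 and 5.44.

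Loss of IRF2 left no called change in any of the 9 genes relative to the control guide. In both IRF2 guides against sgAAVS1, 0 of 9 genes were called at a limma adjusted p under 0.05 (0 at an unadjusted p under 0.05, and 0 with voom on the reads), against 1.59% of all tested genes. Log2 differences ran from -0.10 ± 0.07 (SE) for UROS to 0.06 ± 0.07 for ALAS1. ALAS2, the erythroid first enzyme, was the median of the 9 at -0.0004 ± 0.057 (95% interval -0.12 to 0.12), and the median of all tested genes was -0.018. The widest intervals were those of UROS (-0.24 to 0.04) and ALAD (-0.10 to 0.21). All intervals hold for the deposited scaling and count both libraries of a group as replicates, so larger differences are not excluded. The tightest was that of SLC25A37 (-0.03 to 0.12).

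The guides taken singly gave the same count. In sg1-IRF2 against sgAAVS1, 0 of 9 were called (limma, 0 at an unadjusted p under 0.05, 0 with voom), against 0.825% of all tested genes. In sg2-IRF2 against sgAAVS1, 0 of 9 were called (2 at an unadjusted p under 0.05, UROS and UROD, and 1 with voom, SLC25A37), against 8.16% of all tested genes. UROS, which closes the porphyrin ring, came nearest the threshold there at -0.24 ± 0.08 (adjusted p = 0.0583).

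**Figure D2:**
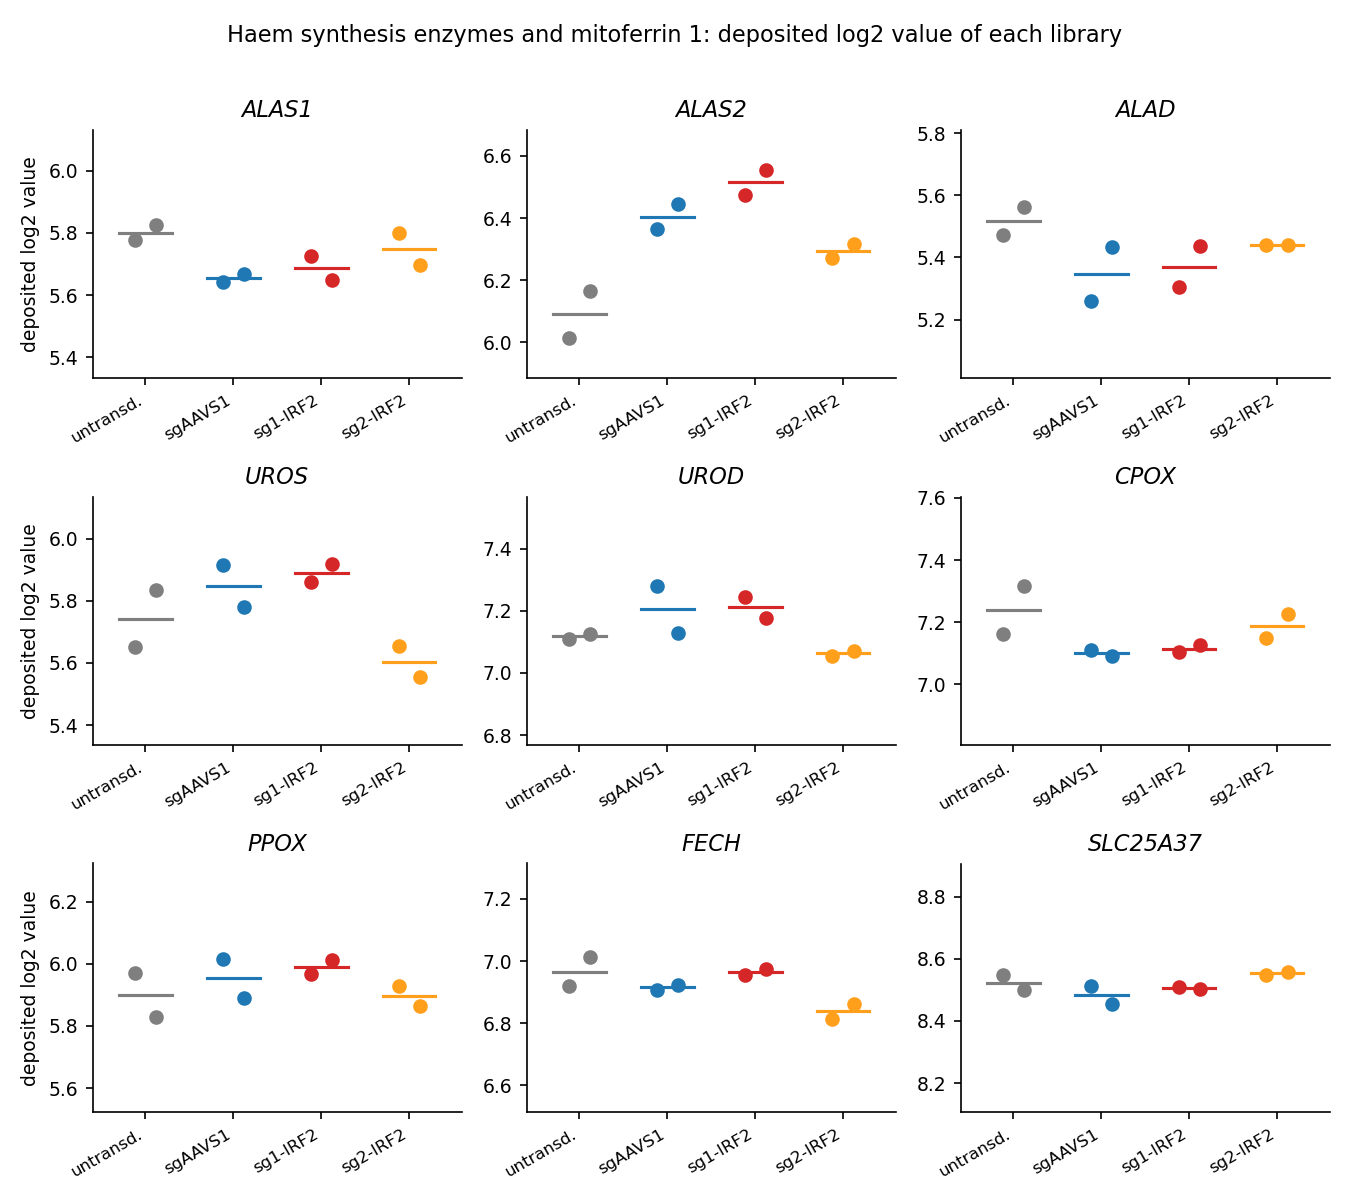
Deposited log2 value (vertical axis, each panel 0.8 log2 units tall) of the 9 genes in each library, with a line at the mean of the 2 libraries of a group. ALAS2 is lowest in both untransduced libraries (6.02 and 6.16) and highest with sg1-IRF2 (6.48 and 6.55), and SLC25A37 spans 0.105 over all 8 libraries.

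ALAS2 was the gene that set the groups apart, and the contrast lay between untransduced cells and cells with a guide. In deposited log2 values the untransduced libraries stood at 6.02 and 6.16 (366 and 395 reads), those of sgAAVS1 at 6.37 and 6.44 (372 and 512 reads), those of sg1-IRF2 at 6.48 and 6.55 (437 and 504 reads), and those of sg2-IRF2 at 6.27 and 6.32 (454 and 443 reads). Both untransduced libraries lay below all 6 libraries with a guide. Among the guide groups, sg2-IRF2 lay lowest and sg1-IRF2 highest, with no overlap of any of the groups on the deposited scale. As RPKM, ALAS2 in sg2-IRF2 (33.03 and 33.91) overlapped sgAAVS1 (33.21 and 35.61), and sg1-IRF2 (35.62 and 36.93) began level with the upper sgAAVS1 library. The untransduced libraries stayed lowest (27.21 and 29.29).

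Against untransduced cells, ALAS2 was higher with the control guide by 0.31 ± 0.07 (SE), a 1.24-fold difference (adjusted p = 0.00473, limma moderated test), and was the 1 gene of 9 called, against 4.75% of all tested genes. With both IRF2 guides it was higher by 0.31 ± 0.06 (adjusted p = 0.0014), again 1 of 9 called, against 2.5% of all tested genes. With sg1-IRF2 alone the difference was 0.42 ± 0.07, or 1.34-fold (adjusted p = 0.000135), the 1 gene of 9 called, against 9.18% of all tested genes. With sg2-IRF2 it was 0.20 ± 0.07 (adjusted p = 0.165) and 0 of 9 were called (limma, 2 at an unadjusted p under 0.05, ALAS2 and FECH, and 0 with voom), against 1.32% of all tested genes. These 4 comparisons share the same untransduced libraries and are not independent of each other. The difference of the control guide, 0.31, was the same size as that of the mean of the IRF2 guides.

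The rise of ALAS2 over untransduced cells kept its sign under every alternative run, but fitted with no mean-variance trend it was not called. Without untransduced replicate 1 it was 0.24 ± 0.08 with sgAAVS1 (adjusted p = 0.148) and 0.24 ± 0.07 with both IRF2 guides (adjusted p = 0.149), no longer called. It remained called with sg1-IRF2 (0.35 ± 0.08, adjusted p = 0.0208). With the replicates that differed by less than sampling noise counted as 1 sample, the difference with sg1-IRF2 was 0.42 ± 0.13 (adjusted p = 0.12) and none of the ALAS2 calls was kept.

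ALAS1, the form made in most tissues, did not follow ALAS2. It stood at 5.78 and 5.82 without a guide (310 and 312 reads), at 5.64 and 5.67 under sgAAVS1 (225 and 299 reads), at 5.73 and 5.65 under sg1-IRF2 (260 and 269 reads), and at 5.80 and 5.70 under sg2-IRF2 (327 and 288 reads). The untransduced libraries lay above both sgAAVS1 libraries and overlapped those of sg2-IRF2. No comparison of ALAS1 passed the test. The difference of sgAAVS1 from untransduced cells was -0.15 ± 0.08 (adjusted p = 0.293), and that of both IRF2 guides from sgAAVS1 0.06 ± 0.07 (adjusted p = 0.817).

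Because both ALAS genes are read in the same library, the share of ALAS2 in their summed reads does not depend on how libraries were scaled. ALAS2 made up 54.1% (exact 95% binomial interval 50.3 to 57.95) and 55.9% (52.1 to 59.6) of ALAS reads in untransduced cells. Under sgAAVS1 it made up 62.3% (58.3 to 66.2) and 63.1% (59.7 to 66.5), and under sg1-IRF2 62.7% (58.99 to 66.3) and 65.2% (61.7 to 68.6). Under sg2-IRF2 its share was 58.1% (54.6 to 61.6) and 60.6% (57.0 to 64.2). All 6 libraries with a guide thus lay above both untransduced libraries, with sg2-IRF2 between them and the others. A lower ALAS1 raises this share as a higher ALAS2 does. Relative to the median log2 value of the remaining genes of the list, ALAS2 stood at -0.430 and -0.259 in untransduced cells and 0.015 and 0.061 under sg1-IRF2. On that measure sg2-IRF2 (-0.101 and -0.048) overlapped sgAAVS1 (-0.097 and 0.037). Reads carry no molecular identifiers, so the intervals hold counting error alone, and those of neighbouring libraries overlap. The share was chosen after the values were seen, and both measures are given without a test.

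**Figure D3:**
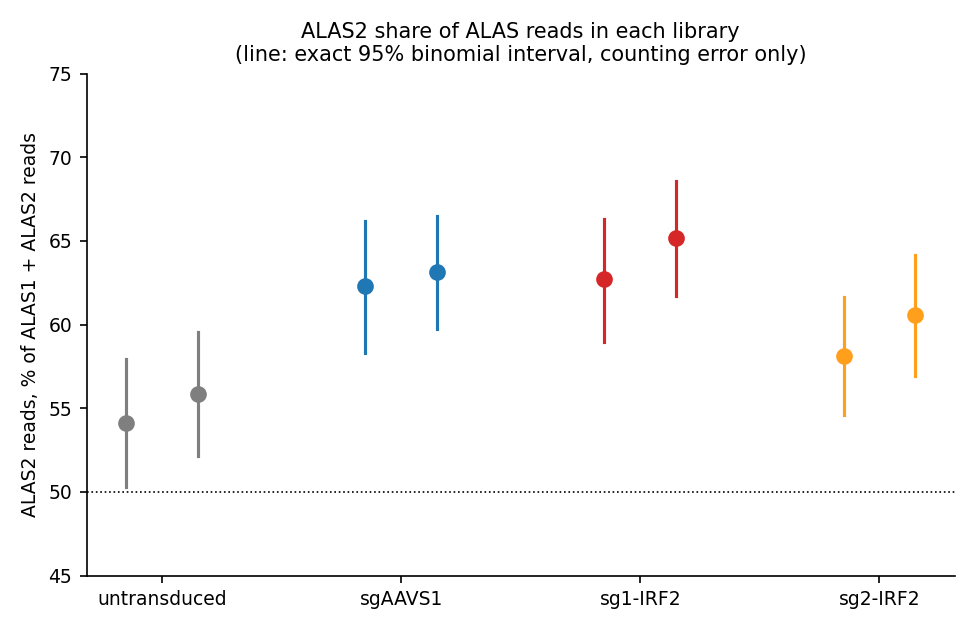
Share of ALAS2 in the summed reads of ALAS1 and ALAS2 (vertical axis, percent, starting at 45) in each of the 8 libraries by group, with exact 95% binomial intervals. The share lies at 54.1% and 55.9% in untransduced cells and between 58.1% and 65.2% in cells with a guide.

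The cytosolic enzymes moved little, and UROS was the one that separated the IRF2 guides. ALAD, which joins aminolevulinic acid into porphobilinogen, stood at 5.47 and 5.56 without a guide, at 5.26 and 5.43 under sgAAVS1, at 5.30 and 5.44 under sg1-IRF2, and at 5.44 in both sg2-IRF2 libraries (173 to 260 reads). It passed no test, and its lowest value was that of sgAAVS1 replicate 1, the shallowest library.

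UROS stood at 5.65 and 5.83 without a guide (284 and 314 reads), at 5.91 and 5.78 under sgAAVS1 (272 and 323 reads), at 5.86 and 5.92 under sg1-IRF2 (285 and 324 reads), and at 5.65 and 5.55 under sg2-IRF2 (296 and 261 reads). The sg2-IRF2 libraries lay below those of sgAAVS1 and sg1-IRF2 and touched the lower untransduced library. UROD, which removes carboxyl groups from the ring, stood at 7.11 and 7.13 without a guide, at 7.28 and 7.13 under sgAAVS1, at 7.24 and 7.18 under sg1-IRF2, and at 7.06 and 7.07 under sg2-IRF2 (701 to 823 reads). UROD had its lowest group in sg2-IRF2 too, at -0.14 ± 0.06 from sgAAVS1 (adjusted p = 0.115). Without sgAAVS1 replicate 2 that difference was -0.22 ± 0.06 (adjusted p = 0.00645), and that of UROS -0.31 ± 0.09 (adjusted p = 0.0149). Without sgAAVS1 replicate 1 they were -0.07 ± 0.06 (adjusted p = 0.53) and -0.18 ± 0.09 (adjusted p = 0.225).

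In sg1-IRF2 against sg2-IRF2, 2 of 9 genes were called by limma, both higher with sg1-IRF2, against 13.3% of all tested genes. UROS was higher by 0.28 ± 0.08 (adjusted p = 0.0221) and ALAS2 by 0.22 ± 0.07 (adjusted p = 0.03). The whole table was shifted in the same direction: the median of all tested genes was 0.112, and 1859 genes were called higher against 93 lower. With library medians aligned the split was 86 higher against 145 lower, UROS differed by 0.17 ± 0.07 (adjusted p = 0.286) and ALAS2 by 0.11 ± 0.06 (adjusted p = 0.439), neither of them called. Both calls were also lost when any 1 library of either guide group was left out.

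CPOX, PPOX, FECH and the iron carrier passed no test in the fit of all 8 libraries with the deposited scaling. CPOX, which makes protoporphyrinogen, stood at 7.16 and 7.32 without a guide, at 7.11 and 7.09 under sgAAVS1, at 7.10 and 7.13 under sg1-IRF2, and at 7.15 and 7.23 under sg2-IRF2 (623 to 878 reads). Both untransduced libraries lay above all sgAAVS1 and sg1-IRF2 libraries, and sg1-IRF2 differed from untransduced cells by -0.13 ± 0.06 (adjusted p = 0.162). With library medians aligned that difference was -0.18 ± 0.05 and was called (adjusted p = 0.0426). Without untransduced replicate 2 it was -0.05 ± 0.06 (adjusted p = 0.697) on the deposited scale. The deposited span of CPOX also covers a readthrough gene on the same strand, AC021660.3, which shares 163 of its exonic bases (5.04%).

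PPOX, which oxidises the ring to protoporphyrin, ran from 5.83 to 6.02 over the 8 libraries (292 to 358 reads), with all 4 groups overlapping except sg1-IRF2 and sg2-IRF2. Of its exonic bases 24.3% lie opposite exons of B4GALT3 and the strand setting of the counting is not given, so some of its reads are uncertain. FECH, which inserts iron, stood at 6.92 and 7.01 without a guide, at 6.91 and 6.92 under sgAAVS1, at 6.95 and 6.98 under sg1-IRF2, and at 6.82 and 6.86 under sg2-IRF2 (542 to 714 reads). Its sg2-IRF2 libraries were the lowest, at -0.13 ± 0.05 from untransduced cells (adjusted p = 0.369). FECH was 0.13 ± 0.05 higher with sg1-IRF2 than with sg2-IRF2 (adjusted p = 0.119), which was called when these groups alone were fitted (adjusted p = 0.0353). SLC25A37 was the most even of the 9, at 8.55 and 8.50, 8.51 and 8.45, 8.51 and 8.50, and 8.55 and 8.56 in the same order of groups (1648 to 2201 reads). Its sg2-IRF2 libraries lay above those of sgAAVS1 by 0.07 ± 0.04 (adjusted p = 0.326). Dividing by library sums instead gave 0.14 ± 0.04 (adjusted p = 0.0469).

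**Figure D4:**
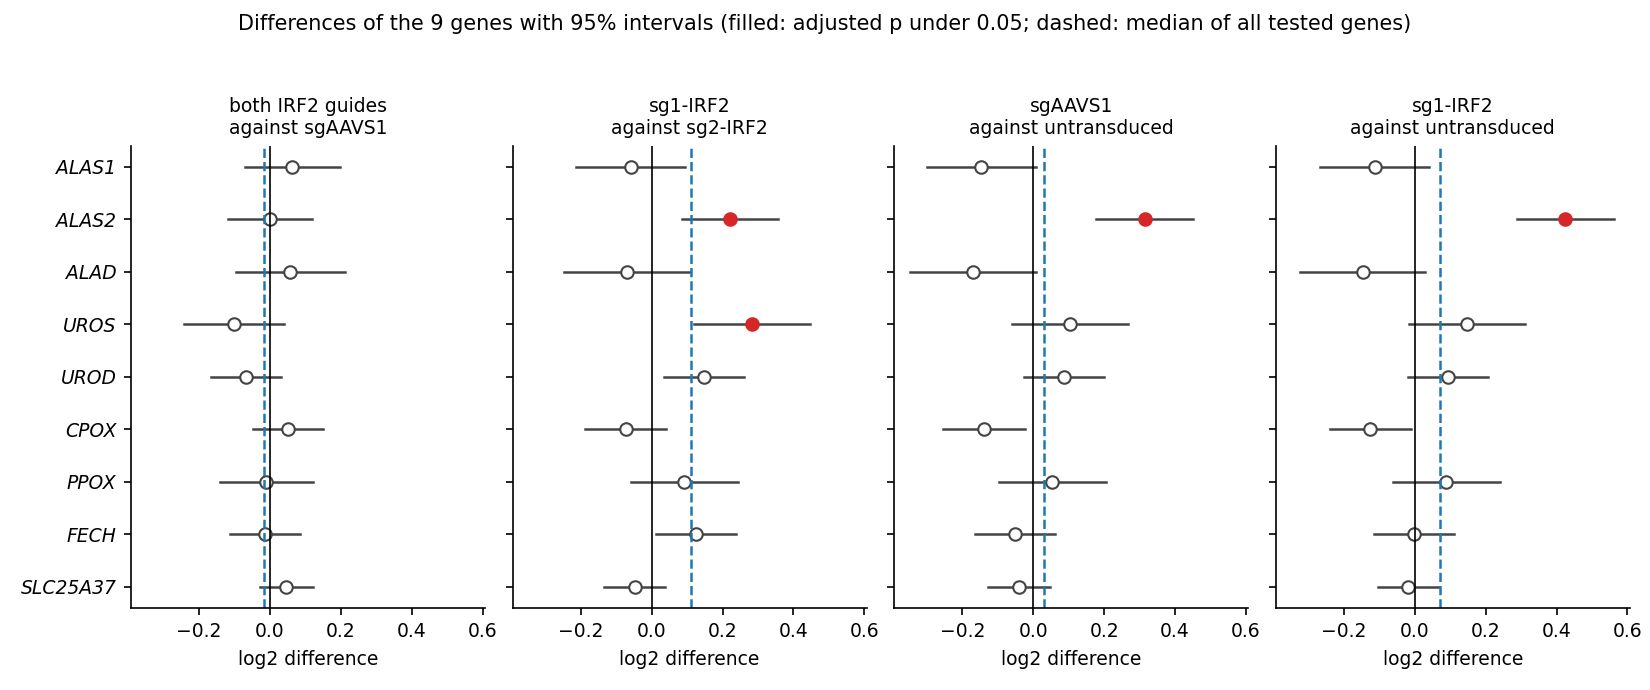
Log2 differences (horizontal axis) of the 9 genes in 4 comparisons, with 95% intervals of the limma fit, filled where the adjusted p is under 0.05, and a dashed line at the median of all tested genes. No gene is filled for both IRF2 guides against sgAAVS1, ALAS2 is filled in the other 3 panels and UROS in that of sg1-IRF2 against sg2-IRF2, where the dashed line lies at 0.112.

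Over all 4 groups at once, a limma moderated F test called 2 of the 9 genes, against 14.6% of all tested genes. ALAS2 had F = 14.9 (adjusted p = 0.00043) and UROS F = 5.06 (adjusted p = 0.0473). UROD followed at 3.32 (adjusted p = 0.136), and PPOX had the lowest F, 0.727. The UROS call was lost with the replicate number as a block, and under 12 of the other 17 alternatives. With library medians aligned CPOX was called in its place (F = 7.66, adjusted p = 0.0299, against 0.336 for UROS).

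The split of called genes into higher and lower depended on the deposited scaling. The larger side changed in some comparisons and held in others. With library medians aligned, the called genes split into 263 higher and 237 lower in sg2-IRF2 against sgAAVS1, in place of 154 and 1042. In sgAAVS1 against untransduced cells the split was 302 and 346 in place of 435 and 262, and in sg1-IRF2 against untransduced cells 352 and 431 in place of 1044 and 302. In sg1-IRF2 against sgAAVS1 it was 34 and 82 in place of 48 and 73, and in sg2-IRF2 against untransduced cells 21 and 96 in place of 13 and 181. In both IRF2 guides against sgAAVS1 library sums gave 84 and 118 in place of 72 and 161, where medians aligned gave 84 and 124. In both guides against untransduced cells medians aligned changed little (140 and 229 in place of 144 and 222), and voom, which also changes the model, gave 120 and 309.

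The partners of haem synthesis were mostly even across groups. Of 17 genes that supply substrates, carry intermediates or turn over ALAS, 16 were tested and 0 were called in both IRF2 guides against sgAAVS1 (limma, 1 at an unadjusted p under 0.05, 0 with voom, median -0.009), against 1.59% of all tested genes. In sg2-IRF2 against sgAAVS1, where 8.16% of all tested genes were called and their median was -0.074, 1 of 16 was lower. This was ABCB10, a mitochondrial transporter that works with SLC25A37 and FECH (-0.21 ± 0.06, adjusted p = 0.0195). In sg1-IRF2 against sg2-IRF2 4 of 16 were higher: ABCB10, the mitochondrial glycine carrier SLC25A38, SHMT2, which makes glycine in mitochondria, and the protease LONP1, by 0.16 to 0.22. The median of the 16 there was 0.136, beside 0.112 for all tested genes, of which 13.3% were called. SHMT2 was also higher with sg1-IRF2 than in untransduced cells (0.20 ± 0.06, adjusted p = 0.0208). None of the calls in this group of genes was kept with library medians aligned. ABCB10 then differed from sgAAVS1 by -0.13 ± 0.05 (adjusted p = 0.198) and SHMT2 from untransduced cells by 0.15 ± 0.06 (adjusted p = 0.159), and both of these calls were lost under 11 of 19 alternatives.

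Iron handling gave few calls. Of 16 tested genes of iron uptake, storage and sensing, 0 were called in both IRF2 guides against sgAAVS1 (limma, 2 at an unadjusted p under 0.05, 0 with voom), and 2 in sg2-IRF2 against sgAAVS1. Of all tested genes 1.59% and 8.16% were called in these comparisons. In sg2-IRF2 the metal importer SLC39A14 was lower (-0.29 ± 0.06, adjusted p = 0.00523) and the iron importer SLC11A2 higher (0.17 ± 0.05, adjusted p = 0.0408). SLC11A2 in sg2-IRF2 was near untransduced cells (0.03 ± 0.05, limma adjusted p = 0.896). In sgAAVS1 it lay below untransduced cells (-0.14 ± 0.05, limma adjusted p = 0.126). Voom called that difference (-0.17 ± 0.05, adjusted p = 0.0421), and SLC11A2 in its F test (adjusted p = 0.00834). SLC39A14 was the 1 gene of this group called in sg1-IRF2 against sg2-IRF2 (0.25 ± 0.06, adjusted p = 0.0133), where 13.3% of all tested genes were called. With library medians aligned that call was lost (0.13 ± 0.06, adjusted p = 0.275) while those against sgAAVS1 were kept. Of 10 tested genes of haem export, breakdown and sensing, limma calls were limited to sg1-IRF2 against sg2-IRF2 and the F test, with the haem transporter SLC48A1 (0.22 ± 0.07) and the haem oxygenase HMOX2 (0.24 ± 0.08) higher in the former. Neither was called with library medians aligned. Voom called 1 other gene of this group, the haem-sensing repressor BACH1 in sg1-IRF2 against untransduced cells (-0.14 ± 0.04, adjusted p = 0.0287). The inducible haem oxygenase HMOX1 had no reads in any library. Of 16 tested genes of iron-sulfur cluster assembly 1 was called, the chaperone HSPA9 in sg1-IRF2 against sg2-IRF2 (0.15 ± 0.05, and 0.04 ± 0.05, not called, with medians aligned), and the 2 genes of haem A synthesis were called in none of the comparisons by limma or voom. The F test called 2 of 16 partners, 1 of 16 iron genes, 1 of 10 export genes and 0 of 16 iron-sulfur genes (limma, 3 at an unadjusted p under 0.05, 0 with voom), against 14.6% of all tested genes.

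Some erythroid genes were also higher with sgAAVS1 and with sg1-IRF2 than in untransduced cells. In sgAAVS1 against untransduced cells 2 of 9 tested globin genes were higher, the embryonic HBZ (0.38 ± 0.10, adjusted p = 0.0245) and HBM (0.88 ± 0.22, adjusted p = 0.0186), the latter on 23 to 45 reads a library. Of 9 tested erythroid regulators 2 were higher there, ZFPM1, the cofactor of GATA1 (0.38 ± 0.07, adjusted p = 0.00139), and the haematopoietic factor GATA2 (0.23 ± 0.05, adjusted p = 0.00526). The list medians were 0.112 for the globin genes and 0.105 for the regulators, beside 0.031 for all tested genes, of which 4.75% were called. In sg1-IRF2 against untransduced cells HBZ, HBM, ZFPM1 and GATA2 were called higher again, with TAL1 (0.16 ± 0.05, adjusted p = 0.0276), a partner of GATA1. Of all tested genes 9.18% were called there. In sg2-IRF2 against untransduced cells 0 of either list was called (limma, 0 globin genes and 1 regulator at an unadjusted p under 0.05, 0 with voom), against 1.32% of all tested genes. The list medians there were -0.041 for the globin genes and 0.01 for the regulators, beside -0.042 for all tested genes. With both IRF2 guides 1 regulator was called, GATA2 (0.19 ± 0.04, adjusted p = 0.00857), against 2.5% of all tested genes.

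Between the guides, 4 of 9 regulators were higher with sg1-IRF2 than with sg2-IRF2, LMO2, TAL1, GATA2 and NFE2, by 0.15 to 0.25, with a list median of 0.147, where 13.3% of all tested genes were called and their median was 0.112. ZFPM1 and LMO2 were lower with sg2-IRF2 than with sgAAVS1 (-0.24 ± 0.07 and -0.22 ± 0.07, adjusted p = 0.0351 and 0.0341), where 8.16% of all tested genes were called. None of these calls between guide groups was kept with library medians aligned, and ZFPM1 and LMO2 stood at -0.16 ± 0.06 and -0.15 ± 0.06 (adjusted p = 0.199 and 0.191). In both IRF2 guides against sgAAVS1 0 of 9 globin genes and 0 of 9 regulators were called (limma, 0 and 1 at an unadjusted p under 0.05, 0 with voom), against 1.59% of all tested genes. The HBZ, ZFPM1 and TAL1 calls of sg1-IRF2 against untransduced cells were lost with library medians aligned (adjusted p = 0.084, 0.0507 and 0.207), whereas GATA2 kept its calls there against untransduced cells. Leaving out untransduced replicate 1 ended the calls of all 4 genes in sgAAVS1 against untransduced cells. These lists were drawn up with earlier results of the series known and are not independent evidence of a direction.

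**Figure D5:**
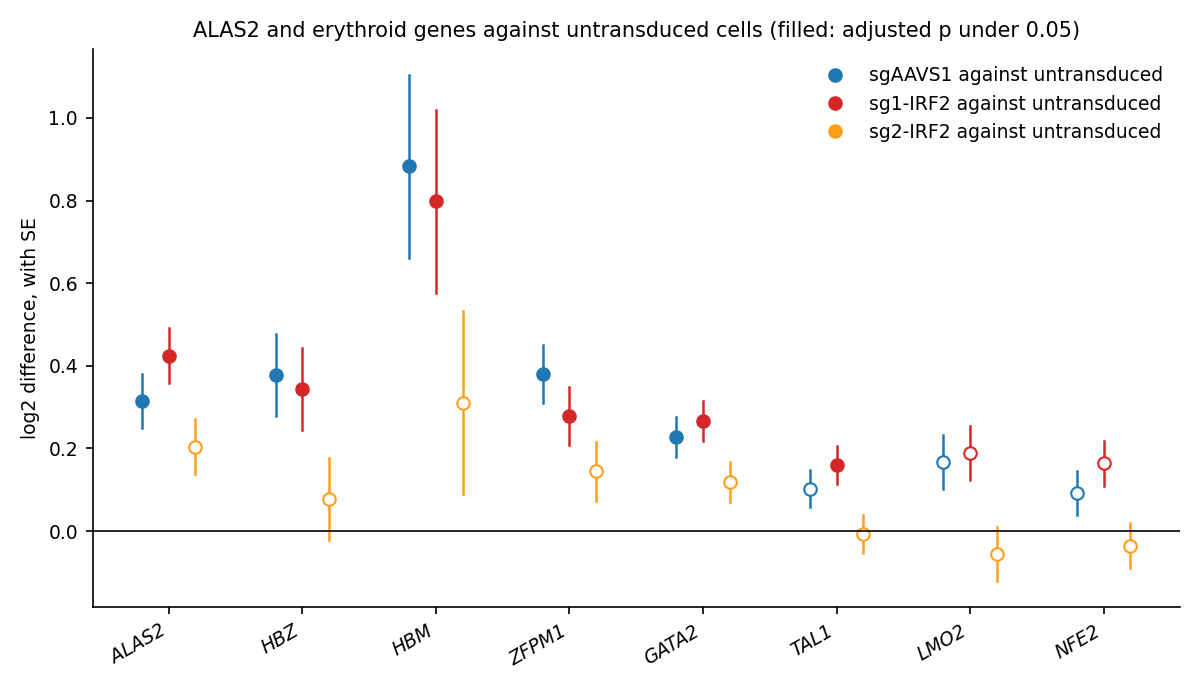
Log2 difference from untransduced cells (vertical axis, with SE) of ALAS2 and 7 erythroid genes for each of the 3 guides, filled where the limma adjusted p is under 0.05. ALAS2, HBZ, HBM, ZFPM1 and GATA2 are filled for sgAAVS1 and sg1-IRF2, TAL1 for sg1-IRF2, and none for sg2-IRF2, and all points share the same untransduced libraries.

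The gene with the strongest F among the 9, ALAS2, is 1 of 11449 genes of mean log2 at or above 3. It was compared with the others by Pearson correlation over the 8 libraries, as a description. The most similar were LAMP1, a lysosomal membrane protein (r = 0.980), the ubiquitin ligase RNF26 (0.979), MGST2, a microsomal glutathione transferase (0.979), SFXN2, a mitochondrial sideroflexin (0.976), and AC093484.4 (0.973). All of these genes had the group order of ALAS2, which follows from picking them by r and is no separate result. In SFXN2, for example, the mean log2 values were 3.95 without a guide, 4.45 under sgAAVS1, 4.52 under sg1-IRF2 and 4.21 under sg2-IRF2. Among erythroid genes r was 0.943 for GATA2, 0.864 for TAL1 and 0.541 for GATA1. Within the pathway it was 0.534 for UROS and -0.726 for ALAS1. The 8 points share library scaling, so genes that follow the shift of the table correlate with each other.

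Markers of other blood cell types were low beside the erythroid ones. The 9 erythroid markers used, all tested, summed to 1120 to 1148 reads per 1000000 in the untransduced libraries, to 1122 to 1234 under sgAAVS1, to 1129 to 1182 under sg1-IRF2 and to 1145 to 1179 under sg2-IRF2, so the groups overlapped. Calls among them were 1 of 9 in sgAAVS1 against untransduced cells (HBZ), 2 of 9 in sg1-IRF2 against untransduced cells (HBZ and TAL1), and 0 of 9 in both IRF2 guides against sgAAVS1 (limma, 0 at an unadjusted p under 0.05, 0 with voom). Of all tested genes 4.75%, 9.18% and 1.59% were called in the same comparisons. Of 5 megakaryocyte markers GP9, PF4 and PPBP had no reads, and the remaining pair summed to 84.9 to 96.8 reads per 1000000 in untransduced cells and 91.9 to 109 with a guide. ITGA2B was higher with both IRF2 guides than in untransduced cells (0.21 ± 0.05, adjusted p = 0.0394). Of 7 myeloid markers 3 were tested and ELANE had no reads, with sums of 137.4 to 149.3 over all libraries. ITGAM was lower with sgAAVS1 and with sg2-IRF2 than in untransduced cells (-0.40 ± 0.11 and -0.49 ± 0.11).

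Lymphoid markers summed to at most 9.81 reads per 1000000, with MS4A1 and CD2 at no reads. Markers of adherent lines were not low. They summed to 556.2 to 563.9 in untransduced cells and 508.8 to 564.6 with a guide, with the keratin KRT8 at 1335 to 1538 reads a library. COL1A1 was lower with both IRF2 guides than with sgAAVS1 (-0.32 ± 0.08, adjusted p = 0.0327), a call lost under 13 of 19 alternatives with values from -0.43 to -0.21, and COL1A2 lower than in untransduced cells (-0.86 ± 0.16, adjusted p = 0.00134). The part of these markers in the ALAS2 and UROS differences was not tested.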

How the data were processed

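Total RNA from K562 cells was depleted of ribosomal RNA and made into libraries with a directional kit, per the labels' protocols. Per the submitters' processing notes, cutadapt, Bowtie2 and hg38 were used. Not given in the sources used here: versions, the counting tool, strand setting, annotation release and duplicate handling. Removal of duplicates would compress the densest genes. Each deposited value is the log2 of a gene's reads after division by a factor common to its library, for each replicate separately. Whole reads were recovered (100% of values whole within 0.01 read), and a gene with no reads carries what 0.9 read would give.

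Group means were fitted to the deposited log2 values of all 8 libraries with limma 3.58.1 in R 4.3.3 (mean-variance trend, residual degrees of freedom 4, prior 22.4, two-sided). Genes with mean log2 at or above 0 were tested, with Benjamini-Hochberg adjustment over 14665 genes and calls at adjusted p under 0.05. Errors are SE unless stated. The fit was tested on simulated data with all libraries scaled alike and the same changes in both IRF2 guide groups. That cannot check calls that depend on scaling. Reads per exonic base used GENCODE release 29. Python 3.11.15 with numpy 2.4.6, pandas 2.3.3, scipy 1.17.1 and matplotlib 3.10.9 made tables and plots. Alternatives changed the filter, the value added before log2, the scaling (library medians, quantiles, sums), the trend, voom on reads, the groups fitted, a replicate block, and each library in turn. Division by library sums and averaging of replicates within counting noise were chosen after seeing the data. The 9 genes and all lists were chosen with earlier results of these data known. Of the lists, genes called in at least 1 comparison are named. FDX2 of the iron-sulfur list was not matched by name. Some listed genes are not reported here, and 9 erythroid markers were used.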

Additional observations from a re-analysis of the deposited data

Results flagged for a closer look

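Differences between the IRF2 guides, tested directly as sg1-IRF2 against sg2-IRF2 (limma, adjusted p under 0.05), were found for 15 of the genes named above, all higher with sg1-IRF2. The log2 differences were 0.22 for ALAS2 and 0.28 for UROS among the haem synthesis enzymes. Among partners of the pathway they were 0.21 for ABCB10, 0.22 for SLC25A38, 0.22 for SHMT2 and 0.16 for LONP1. In iron and haem handling they were 0.25 for SLC39A14, 0.22 for SLC48A1, 0.24 for HMOX2 and 0.15 for HSPA9. Among erythroid regulators they were 0.25 for LMO2, 0.17 for TAL1, 0.15 for GATA2 and 0.20 for NFE2, and the myeloid marker ITGAM differed by 0.38. The median of all tested genes in this comparison was 0.112, and 13.3% of them were called, 1859 higher and 93 lower. The 15 were picked out by these same tests, so their number and direction are a description only. With library medians aligned, quantile normalization, library sums or voom none of the 15 was called, and with medians aligned the differences ran from 0.035 for GATA2 to 0.273 for ITGAM.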

How the results depend on the processing

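None of the calls of the 9 genes changed sign under any alternative run. Their 7 called values were kept in 86 and lost in 45 of 131 alternatives. Values that were not called gained a call in 29 of 1399 and changed sign in 83. The counts of the 9 genes called in both IRF2 guides against sgAAVS1 and in sg1-IRF2 against sgAAVS1 stayed at 0 throughout. In sg2-IRF2 against sgAAVS1 the count of 0 became 1 with quantile normalization, voom or library sums (SLC25A37), and ran from 0 to 2 with 1 library left out. In sg1-IRF2 against sg2-IRF2 the count of 2 became 0 with no filter, medians aligned, no trend, library sums or averaged replicates, 1 with quantile normalization or voom (SLC25A37 in place of both) and 4 with only the groups compared, and ran from 0 to 3 with 1 library left out. In sgAAVS1 against untransduced cells the count of 1 became 2 with quantile normalization (CPOX) and 0 with no trend or averaged replicates (0 to 1 with 1 library left out). In both guides against untransduced cells it became 0 with no trend or averaged replicates (0 to 1). In sg1-IRF2 against untransduced cells it became 2 with medians aligned, quantile normalization, voom or library sums (CPOX), and 0 with no trend or averaged replicates. In sg2-IRF2 against untransduced cells the count of 0 became 1 (ALAS2) with medians aligned, quantile normalization or only the groups compared (0 to 1). By the F test the count of 2 became 1 with no filter or the replicate block and 0 with no trend or averaged replicates (1 to 3). It stayed at 2 with medians aligned, with CPOX in place of UROS, and was 3 with quantile normalization, voom or library sums (ALAS2, CPOX and SLC25A37). The 53 called values of related genes were kept in 537 and lost in 455 of 992 alternatives.

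Counts over all genes ran over these alternatives from 60 to 428 in both IRF2 guides against sgAAVS1 (233 with the deposited scaling), 45 to 237 in sg1-IRF2 against sgAAVS1 (121), 57 to 1923 in sg2-IRF2 against sgAAVS1 (1196) and 2 to 4033 in sg1-IRF2 against sg2-IRF2 (1952). They ran from 11 to 1456 in sgAAVS1 (697), 54 to 835 in both guides (366), 62 to 2479 in sg1-IRF2 (1346) and 32 to 643 in sg2-IRF2 (194) against untransduced cells, and from 52 to 4189 by the F test (2137). The difference of replicate 1 from replicate 2 correlated between pairs of groups at -0.079 to 0.216 across 12500 genes. The highest value was that of sgAAVS1 with sg1-IRF2. These values do not settle whether the replicate numbers pair the libraries. The replicate block changed no other count of the 9 genes. Depth limits ALAD and ALAS1 most, with 173 to 260 and 225 to 327 reads a library. The causes of these changes were not tested.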
